A study of Rattus norvegicus with 6 samples.

Results

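The enzymes of the kynurenine pathway were followed in skeletal muscle of newborn rats of lower and average birth weight. Of 10 listed enzymes, 9 had a row with a matched symbol among the 26300 genes and transcripts of the array table, and *Afmid* (arylformamidase) was not analysed here. The list was built around *Aadat*, which was chosen by its fall in LBW compared to ABW pups in these same arrays, and its difference is therefore given as a description without a test. The other enzymes were added for their place in the pathway. The question was whether *Aadat* changed alone or together with other enzymes of tryptophan breakdown.

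All pups were 1-day-old male Wistar rats that differed in birth weight and had no further treatment. Soleus and gastrocnemius of a pup formed 1 muscle sample. The lower birth weight (LBW) group held 3 pups of the 5th to 25th percentile. The 3 pups of average birth weight (ABW) are placed in percentiles 50 to 75 by the treatment protocol and the paper, and in percentiles 25 to 75 by the sample labels. Each pup's RNA went to an array of its own, and which litters the pups came from is not given in the sources used here, so that p-values measure only the spread between these pups. A value is a normalized log2 signal, so that a difference of 1 is a 2-fold change, and signals of different genes cannot be set against each other because each gene has its own probes. In such bulk muscle samples, fewer cells of a type and less RNA per cell cannot be told apart.

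Most tryptophan that is not built into protein is broken down along the kynurenine pathway. *Ido1* and *Tdo2* encode the dioxygenases that open the tryptophan ring, and the kynurenine that is formed can leave along different routes. Kynurenine 3-monooxygenase (*Kmo*), kynureninase (*Kynu*), 3-hydroxyanthranilate dioxygenase (*Haao*) and quinolinate phosphoribosyltransferase (*Qprt*) lead step by step towards NAD+, and *Acmsd* encodes a decarboxylase that draws an intermediate away from it. The aminotransferases encoded by *Aadat* (kynurenine aminotransferase II) and *Kyat1* (kynurenine aminotransferase I) instead turn kynurenine into kynurenic acid. *Aadat* also acts on 2-aminoadipate in the breakdown of lysine. In adult skeletal muscle, kynurenine aminotransferases are known for clearing circulating kynurenine, and *Tdo2*, *Haao* and *Acmsd* are best known from liver and kidney.

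The threshold of the study, an unadjusted p under 0.05 with a fold change of at least 1.5, was applied to the p of limma over all features. The 8 skeletal muscle markers with a row had a mean log2 signal of 13.66 to 13.84 in LBW and 13.78 to 13.84 in ABW pups, and 0 passed the threshold. Parvalbumin (*Pvalb*), a marker of fast fibres, was the dimmest of them, at 7.44, 8.79 and 6.87 in LBW 1, 2 and 3 and at 8.31, 8.58 and 9.32 in ABW 1, 2 and 3, a log2 difference of -1.04 (SE 0.51). As for *Aadat*, LBW 1 and LBW 3 were its lowest pups. Markers of other tissues did move with the groups or with single pups. The 9 bone markers lay above the ABW mean by 3.21 in LBW 1, 4.15 in LBW 3 and 0.54 in LBW 2 on average (log2). Of these, 5 were past the threshold as higher, where 2.38% of all features were. The 6 osteoclast markers lay above the ABW mean by 2.57 in LBW 3 and 0.11 in LBW 2, with LBW 1 in between, and 2 of them were past the threshold as higher. Several of these bone and osteoclast markers are among the genes that the paper lists as most upregulated in these same arrays. The 9 liver markers lay 0.77 above the ABW mean in LBW 2 and between -0.31 and 0.05 in all other pups. LBW 1 and LBW 3 therefore stood apart in bone genes and LBW 2 in liver genes, and results that differ between these pups are given with and without them below.

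*Aadat* (NM_017193) was at 6.46, 8.23 and 6.38 in LBW 1, 2 and 3 and at 8.11, 9.66 and 9.29 in ABW 1, 2 and 3 on the log2 scale. LBW 1 and LBW 3 were low, whereas LBW 2 lay just above ABW 1, so that the groups overlapped. The LBW mean was 7.02 ± 1.04 (SD, n = 3) and the ABW mean 9.02 ± 0.81 (SD, n = 3), a log2 difference of -2.00 (SE 0.60). Without both LBW 1 and LBW 3, the pups with the high bone signals, the difference between LBW 2 and the 3 ABW pups was -0.79.

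*Kmo* (NM_021593), the enzyme that commits kynurenine to the branch towards NAD+, was also lower in LBW pups. Its signal was 5.98, 6.37 and 5.47 in LBW 1, 2 and 3 and 6.85, 7.19 and 6.88 in ABW 1, 2 and 3 (log2). The highest LBW pup (LBW 2) was still below the lowest ABW pup (ABW 1). The means were 5.94 ± 0.45 (SD, n = 3) and 6.97 ± 0.19 (SD, n = 3), a log2 difference of -1.03 (SE 0.23, 95% interval -1.59 to -0.47) and a fold change of 0.489. *Kmo* passed the threshold (limma p = 0.00367, exact permutation p = 0.1, two-sided, the smallest that 3 pups against 3 allow). It did not pass after Benjamini-Hochberg adjustment over all features (adjusted p = 0.262 by limma). With any single pup left out, *Kmo* stayed past the unadjusted threshold, with log2 differences from -1.25 (without LBW 2) to -0.80 (without LBW 3). With LBW 2 as the lone LBW pup, assumed to vary like the others, the log2 difference was -0.60 and still past it by limma.

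**Figure D1:**
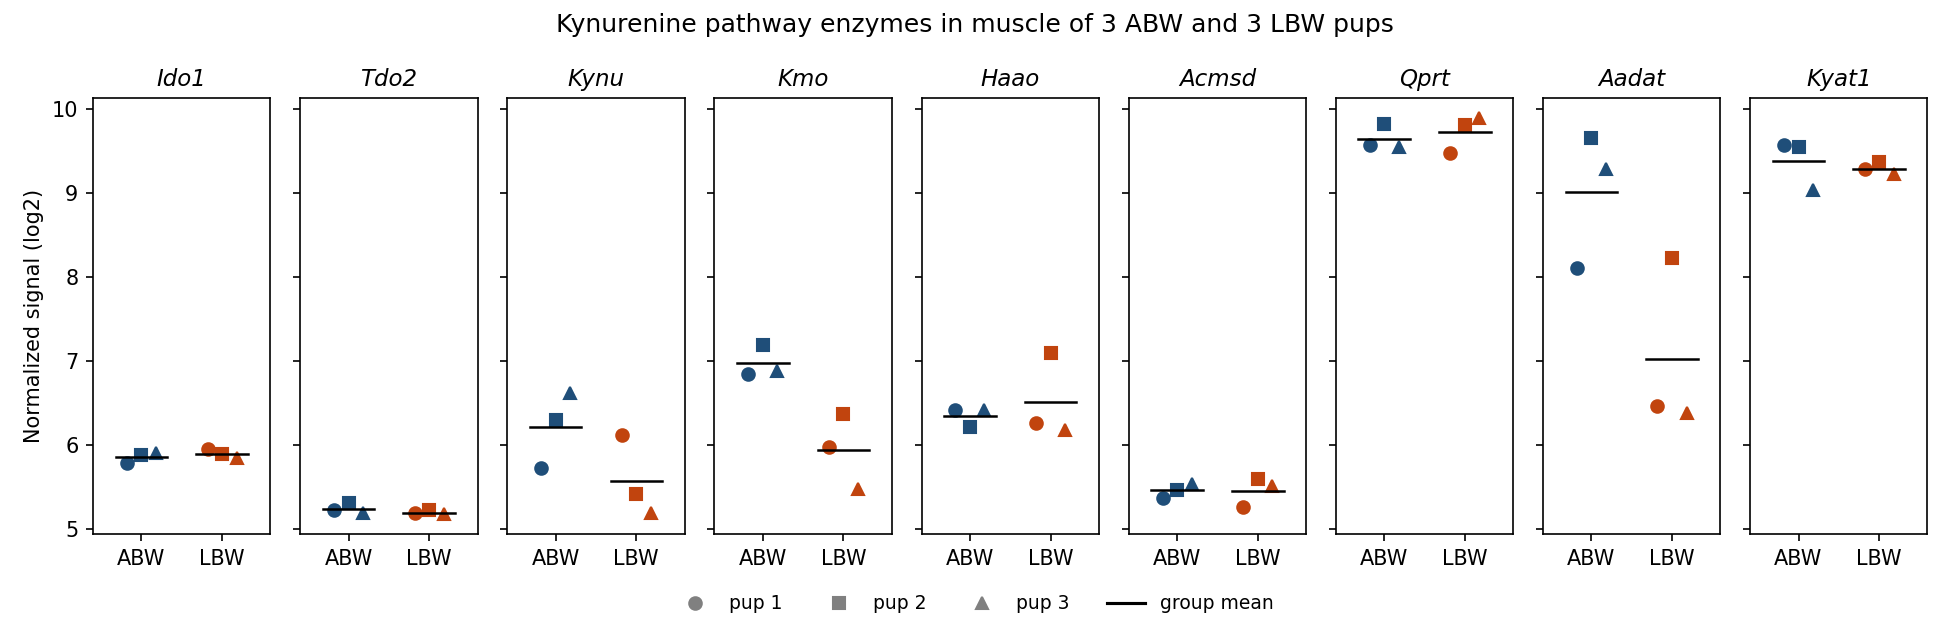
Normalized log2 signal (y axis) of the 9 enzymes in each ABW (blue) and LBW (red) pup, with the pup number as the symbol shape and the group mean as a line, ordered from the ring-opening enzymes to the aminotransferases. *Kmo* is the only panel in which the LBW and ABW points do not overlap, and *Aadat* has the widest spread of pups.

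Of the 8 enzymes other than *Aadat*, 1 (*Kmo*) passed the unadjusted threshold of the study in the lower direction, where 1.89% of all features did. *Aadat* was taken for its fall and is left out of this count. In the higher direction 0 of 9 passed, compared to 2.38% of all features. *Kmo* was the 1 enzyme of 9 with all LBW values below all ABW values (10.1% of all features), and 0 of 9 had all LBW values above (7.27% of all features). After Benjamini-Hochberg adjustment, 0 of 9 enzymes and 0 (0%) of 26300 features had a limma p under 0.05, whereas 3250 features, among them 1 of the 8 enzymes other than *Aadat*, were under 0.05 before it. Without LBW 2, 125 features passed after adjustment, and *Kmo* was not among them (adjusted p = 0.087 by limma). The two-tailed test named in the paper's statistics section (the methods' test) called 0 features after adjustment, and 2501 had an unadjusted p under 0.05. The median log2 difference of the 8 enzymes other than *Aadat* was -0.02, equal to that of all features (-0.02).

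The pups came in nearly the same order for *Aadat* and *Kmo*. For both, LBW 3 was the lowest pup, followed by LBW 1, and ABW 3 and ABW 2 were the highest. The orders differed in that ABW 1 was below LBW 2 for *Aadat* and above it for *Kmo*. Over the 6 arrays the Pearson correlation of the log2 signals of both genes was 0.93. The difference between the groups contributes to this value, and for the deviations of each pup from its group mean the correlation was 0.80. For these deviations the other enzymes correlated with *Aadat* at values from -0.04 (*Kyat1*) to 0.67 (*Haao* and *Acmsd*), with *Tdo2* at 0.54. The place of *Kmo* among all genes is not given here, and the genes most like *Aadat* (below) reached 0.97 to 0.99 over the 6 arrays. These correlations describe 6 arrays that share their normalization and carry no test.

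The next step of the branch is *Kynu* (NM_053902), which cleaves kynurenine and 3-hydroxykynurenine. *Kynu* was at 6.11, 5.41 and 5.19 in LBW 1, 2 and 3 and at 5.72, 6.30 and 6.62 in ABW 1, 2 and 3 (log2). The groups overlapped, because LBW 1 was above ABW 1. The log2 difference of -0.64 (SE 0.31, 95% interval -1.39 to 0.10) was short of the threshold (limma p = 0.0801, adjusted p = 0.462, exact permutation p = 0.2). It passed the unadjusted threshold when LBW 1 was left out (-0.91) or ABW 1 was left out (-0.89), and also with an intensity trend in the variance. The call of *Kynu* depended on single pups, and its order of pups was not that of *Aadat*, since LBW 1 was the highest LBW pup for *Kynu* and among the lowest of all pups for *Aadat*.

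**Figure D2:**
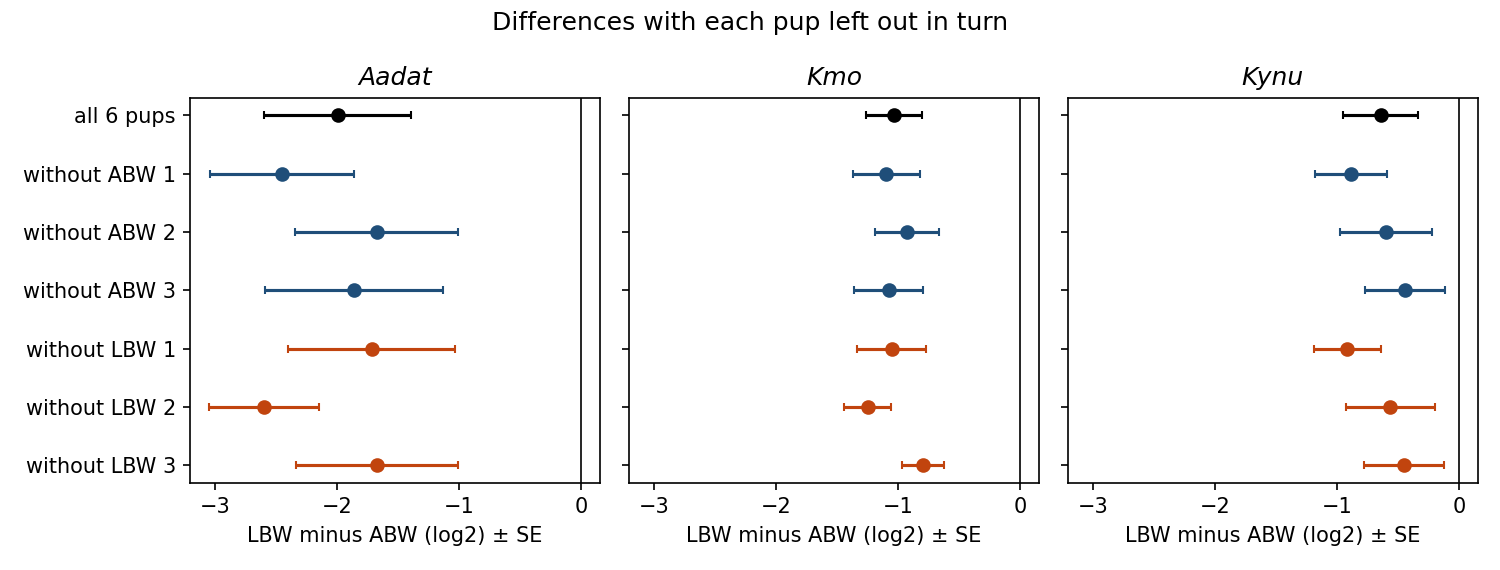
LBW minus ABW log2 difference with its standard error (x axis) for *Aadat*, *Kmo* and *Kynu*, with all 6 pups (black) and with each ABW (blue) or LBW (red) pup left out (y axis). All differences are below 0, those of *Kmo* lie between -1.25 and -0.80, and those of *Aadat* between -2.60 and -1.67.

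The enzymes that open the tryptophan ring did not pass the threshold. *Ido1*, which interferon induces in many cell types, lay between 5.85 and 5.96 in LBW and between 5.78 and 5.91 in ABW pups (log2), with a log2 difference of 0.04 (95% interval -0.16 to 0.24). *Tdo2*, the ring-opening enzyme of liver, lay between 5.17 and 5.22 in LBW and between 5.19 and 5.30 in ABW pups, with a log2 difference of -0.04 (95% interval -0.23 to 0.15). Both were in the dimmest 25% of features, as were *Acmsd* and *Kynu*. The cut was a mean log2 signal of 6.21. *Kmo* was just above it with a mean of 6.46, and its values in LBW 1 (5.98) and LBW 3 (5.47) were below it. For such dim rows and values the size of a difference may be limited by the background of the array, which the values do not give.

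*Haao*, which acts after *Kynu*, was high in a single pup. Its log2 signal was 7.10 in LBW 2, while LBW 1 and LBW 3 were at 6.26 and 6.18 and the ABW pups at 6.42, 6.21 and 6.42. The log2 difference was 0.16 (SE 0.25, 95% interval -0.43 to 0.76), and without LBW 2 it was -0.13. LBW 2 alone lay 0.75 above the ABW mean. LBW 2 was also the pup with the highest liver markers. Albumin (*Alb*) was at 8.45 in LBW 2 and between 5.21 and 6.76 in the other pups, and alpha-fetoprotein (*Afp*) was at 6.71 compared to 5.53 to 5.77. The part of these liver markers in the signal of *Haao* was not tested.

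*Qprt* (NM_001009646), the enzyme that joins the pathway to NAD+ synthesis, lay between 9.48 and 9.90 in LBW and between 9.55 and 9.82 in ABW pups, with a log2 difference of 0.08 (95% interval -0.26 to 0.42). *Acmsd* lay between 5.26 and 5.59 in LBW and between 5.37 and 5.54 in ABW pups, with a log2 difference of -0.0045 (95% interval -0.28 to 0.27). The values of the groups overlapped for both.

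The other aminotransferase of the list, *Kyat1* (NM_001013164), was at 9.29, 9.37 and 9.22 in LBW 1, 2 and 3 and at 9.58, 9.55 and 9.04 in ABW 1, 2 and 3 (log2). All LBW pups lay within the range of the ABW pups. Its log2 difference was -0.10 (SE 0.16, 95% interval -0.48 to 0.29), an interval that leaves out a fall by 1.5-fold. Other enzymes with kynurenine aminotransferase activity, *Kyat3* and the mitochondrial aspartate aminotransferase *Got2*, had log2 differences of -0.16 (95% interval -0.72 to 0.40) and 0.06 (95% interval -0.23 to 0.35). Whether the difference of *Aadat* exceeds that of the other aminotransferases was not tested, since *Aadat* was chosen for its size.

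Of 37 other genes around the pathway with a row, 2 were past the unadjusted threshold in the lower and 2 in the higher direction, compared to 1.89% and 2.38% of all features, with a median log2 difference of -0.03. The same shares of all features stand behind the counts of the single lists. Of the genes past the threshold, *Pparg* is among those that the paper lists as most downregulated in these same arrays. In the group of NAD+ synthesis and remaining kynurenine enzymes, 0 of 8 genes passed. The largest falls were those of *Nmnat1* (nicotinamide mononucleotide adenylyltransferase), with a log2 difference of -0.56 (SE 0.12, adjusted p = 0.259 by limma), and of the nicotinamide riboside kinase *Nmrk1* (-0.46, SE 0.16, adjusted p = 0.341 by limma). For both, all LBW values were below all ABW values, as for 10.1% of all features, and the fold change was under 1.5. *Nadsyn1*, which makes NAD+ in the last step from tryptophan and was picked after its value was seen, also had groups that did not overlap and a fold change under 1.5 (-0.41, SE 0.14). *Nampt*, the enzyme of the salvage of nicotinamide, was at -0.03 (95% interval -0.29 to 0.23).

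*Aadat* is also an enzyme of lysine breakdown, and of the 4 lysine and aminoadipate genes with a row 0 passed. The largest differences were 0.16 for *Ogdh* and 0.12 for *Dld*, subunits of the 2-oxoglutarate dehydrogenase complex, and *Dhtkd1*, which acts on the product of *Aadat* and was picked for that place, was at -0.11 (95% interval -0.53 to 0.30). In the list of serotonin synthesis and other uses of tryptophan, 1 of 5 genes passed. This was *Maob*, which oxidizes amines, at 7.49, 8.28 and 7.92 in LBW 1, 2 and 3 and at 8.35, 8.77 and 8.65 in ABW 1, 2 and 3 (log2). Its log2 difference was -0.69 (SE 0.22, adjusted p = 0.315 by limma), and it fell short of the threshold without LBW 1 (-0.49), without ABW 2 (-0.61), without ABW 3 (-0.66), and by the methods' test. Without both LBW 1 and LBW 3 the log2 difference was -0.31. *Ddc*, of the same list, was higher in LBW pups (0.52, SE 0.17, adjusted p = 0.328 by limma), with a fold change under 1.5. Its groups did not overlap, as for 7.27% of all features in this direction. Of 5 transporters of tryptophan and kynurenine 0 passed, and the largest differences were those of *Slc7a5* (0.39), the light chain of the large neutral amino acid transporter, and *Slc7a8* (-0.25).

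**Figure D3:**
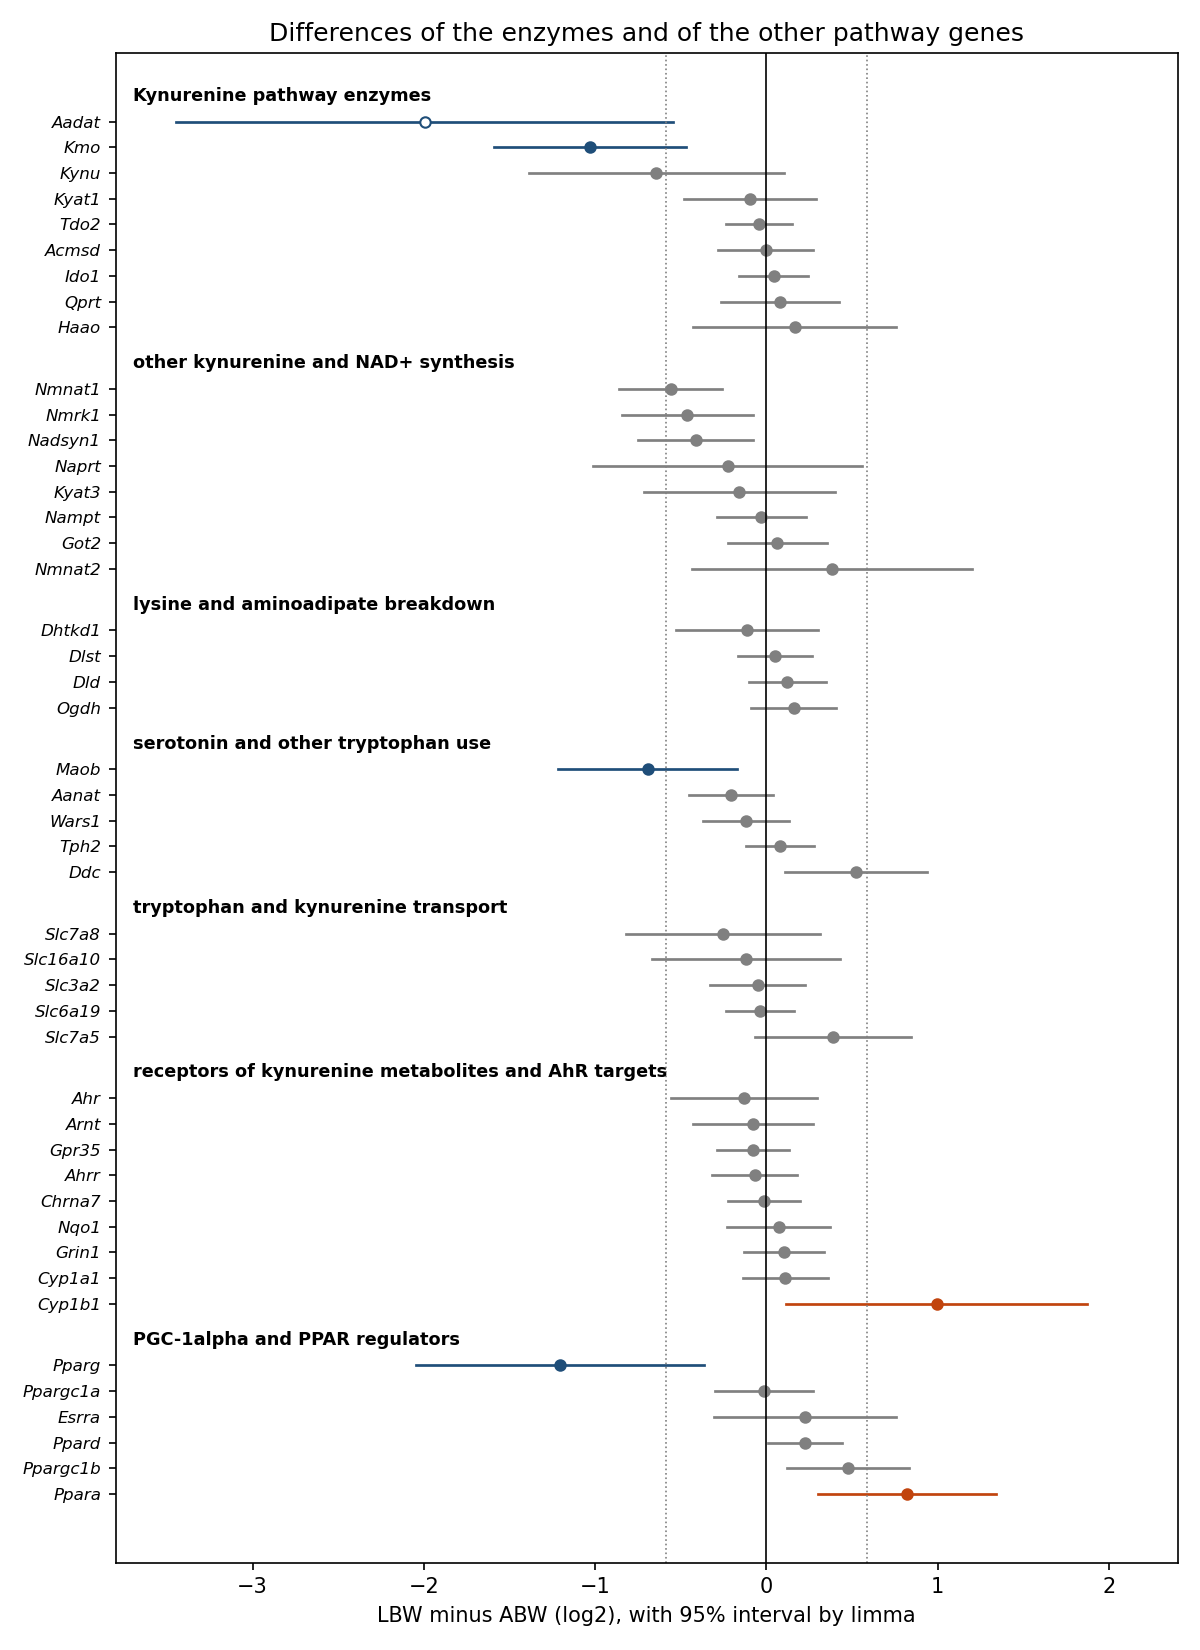
LBW minus ABW log2 difference with its 95% interval by limma (x axis) for the 9 enzymes and the 37 other genes around the pathway, in groups (y axis). Colour marks genes past the unadjusted threshold (blue lower, red higher), dotted lines a 1.5-fold change, and the open point *Aadat*, which was chosen by its difference; *Kmo* is the other coloured enzyme.

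Kynurenine and kynurenic acid are ligands of the aryl hydrocarbon receptor (*Ahr*), and kynurenic acid also acts on *Gpr35* and on glutamate receptors. Of 9 genes in this list 1 passed. *Cyp1b1*, a target of the receptor, was at 9.77, 9.25 and 10.61 in LBW 1, 2 and 3 and at 9.26, 8.48 and 8.90 in ABW 1, 2 and 3 (log2), a log2 difference of 0.99 (SE 0.37, adjusted p = 0.361 by limma). LBW 2 lay just below ABW 1, and LBW 1 and LBW 3, the pups with the high bone markers, had the highest values. The log2 difference was 0.37 without both of them, and the call was lost when any 1 of LBW 1, LBW 3, ABW 2 and ABW 3 was left out, and by the methods' test. *Cyp1a1*, another target, lay between 5.84 and 5.95 in LBW and between 5.67 and 5.93 in ABW pups, and *Ahr* itself had a log2 difference of -0.13 (95% interval -0.56 to 0.30).

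PGC-1alpha, with the receptors encoded by *Ppara* and *Ppard*, is known to raise kynurenine aminotransferases in trained muscle. In the list of 6 PGC-1alpha and PPAR genes, *Ppara* was past the threshold as higher and *Pparg* as lower in LBW pups. *Ppara* was at 10.34, 10.24 and 9.85 in LBW 1, 2 and 3 and at 9.74, 9.20 and 9.03 in ABW 1, 2 and 3, a log2 difference of 0.82 (SE 0.22, adjusted p = 0.286 by limma). Its groups did not overlap, as for 7.27% of all features in this direction. *Pparg*, the receptor of adipocytes, was at 9.12, 8.86 and 8.696 in the LBW and at 9.26, 10.60 and 10.42 in the ABW pups. The groups did not overlap (as for 10.1% of all features in this direction), with a log2 difference of -1.20 (SE 0.35, adjusted p = 0.302 by limma). *Ppargc1a*, which encodes PGC-1alpha, had one of -0.01 (95% interval -0.30 to 0.27). The LBW values of *Ppargc1a* lay within the range of the ABW pups. *Ppargc1b* and *Ppard* were higher in LBW pups, with log2 differences of 0.47 (SE 0.15) and 0.23 (SE 0.09). For both the groups did not overlap, again as for 7.27% of all features, and the fold change was under 1.5.

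The level of adipocyte markers moved with *Aadat* in part. Of 10 adipocyte genes, 9 had a log2 difference below 0 (14617 of 26300 features did) and 1 (*Lep*) was past the threshold as lower (1.89% of all features), with a median of -0.33. *Lep* is also among the genes that the paper lists as most downregulated in these arrays. The mean log2 signal of the list was 10.07 to 10.88 in LBW and 10.42 to 11.56 in ABW pups. Compared to the ABW mean, the list was at -0.38, -0.22 and -1.03 in LBW 1, 2 and 3, and *Aadat* at -2.56, -0.79 and -2.64. In ABW 1, 2 and 3 the list was at -0.68, 0.46 and 0.22, and *Aadat* at -0.91, 0.64 and 0.27. ABW 1 was thus the lowest ABW pup for both, whereas LBW 1 lay far below ABW 1 for *Aadat* and above it for the list. Macrophages are known to hold *Kmo* and *Kynu*. Of 9 macrophage and monocyte markers 0 passed, and their mean log2 signal was 11.35 to 11.50 in LBW and 11.21 to 11.71 in ABW pups. Kidney tubule markers, from the organ in which *Aadat* is abundant, had a mean log2 signal of 6.47 to 6.61 in LBW and 6.47 to 6.64 in ABW pups, and 0 of 7 passed. The 4 red blood cell precursor markers lay at -0.36, 0.08 and -0.62 compared to the ABW mean in LBW 1, 2 and 3 and at 0.24, 0.01 and -0.25 in ABW 1, 2 and 3, with 0 of 4 past the threshold. In the mean of these markers LBW 1 and LBW 3 were the lowest pups, as for *Aadat*. Of the single genes this held for *Slc4a1* and *Alas2*. The lowest pup was LBW 2 for *Hbb* (15.13) and ABW 3 for *Epor* (8.40). The part of the muscle, adipocyte, bone, osteoclast and red blood cell markers in the values of *Aadat* and *Kmo* was not tested.

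**Figure D4:**
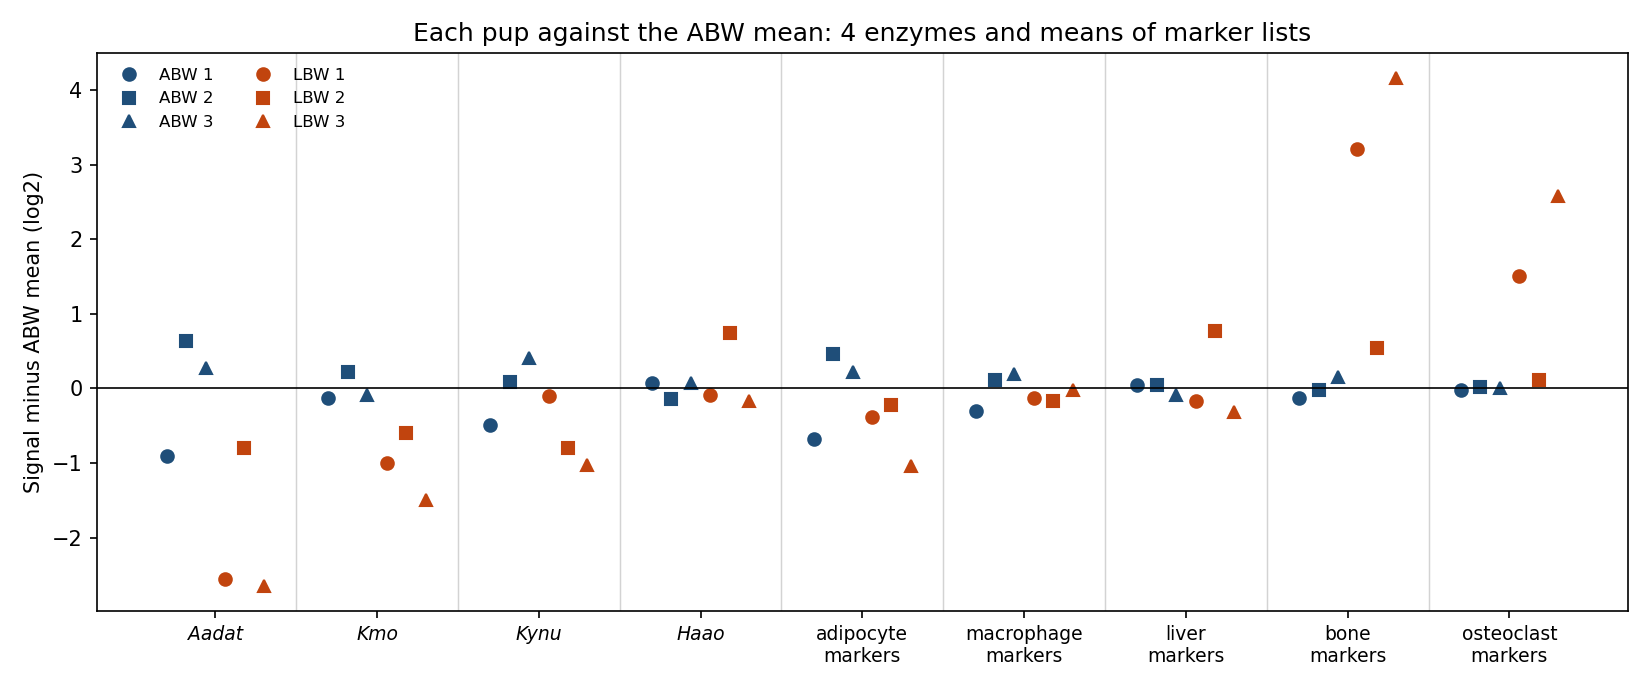
Log2 signal of each pup minus the mean of the 3 ABW pups (y axis) for *Aadat*, *Kmo*, *Kynu*, *Haao* and the means of 5 marker lists (x axis), with ABW pups in blue, LBW pups in red and the pup number as the symbol shape. LBW 1 and LBW 3 are lowest for *Aadat* and highest for bone and osteoclast markers, and LBW 2 is highest for *Haao* and liver markers.

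The genes most like *Aadat* over the 6 arrays were sought among 1093 genes with a symbol whose log2 signal ranged by at least 1. The highest Pearson correlations were those of *Akr1e2* (0.99), an aldo-keto reductase, *Amph* (0.99), which encodes amphiphysin, *Ttll9* (0.98), *Fgf10* (0.98), a fibroblast growth factor, and *Aqp7* (0.97), a channel for water and glycerol. Of these, *Amph* is also among the genes that the paper lists as most downregulated in these arrays. With 6 arrays, high values among many genes are common, and no test was made. For the deviations from the group means, the correlations of these genes with *Aadat* were between 0.93 and 0.99. The genes were picked for their likeness over these same arrays, so that this is not a separate result. *Aqp7* was at 11.33, 11.90 and 11.44 in LBW 1, 2 and 3 and at 11.96, 12.52 and 12.14 in ABW 1, 2 and 3 (log2). *Akr1e2* was at 9.30, 10.02 and 9.41 in the LBW and at 10.03, 10.53 and 10.37 in the ABW pups. *Kynu*, the one enzyme besides *Aadat* and *Kmo* with such a range, correlated with *Aadat* at 0.61, and at 0.21 for the deviations from the group means.

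The 250 bases before the transcript starts of *Aadat* and *Kmo* are shown because *Aadat* was chosen for its fall and *Kmo* was past the threshold. They are taken from RefSeq on the build GRCr8, and capitals mark matches to a fixed set of short motifs. The *Aadat* window is chr16:34555181-34555430 on the minus strand, and the *Kmo* window is chr13:90089271-90089520 on the plus strand, both printed along the gene. Each window ends at the start of 1 RefSeq transcript. The *Aadat* window lies within the full RefSeq extent of its gene and the *Kmo* window in part, so that other transcripts begin farther upstream.

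Aadat: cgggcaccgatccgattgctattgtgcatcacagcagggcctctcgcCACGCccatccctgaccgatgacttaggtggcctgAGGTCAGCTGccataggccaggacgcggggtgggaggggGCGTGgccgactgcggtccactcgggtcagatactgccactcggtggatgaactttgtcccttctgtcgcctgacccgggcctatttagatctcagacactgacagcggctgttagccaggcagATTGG

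Kmo: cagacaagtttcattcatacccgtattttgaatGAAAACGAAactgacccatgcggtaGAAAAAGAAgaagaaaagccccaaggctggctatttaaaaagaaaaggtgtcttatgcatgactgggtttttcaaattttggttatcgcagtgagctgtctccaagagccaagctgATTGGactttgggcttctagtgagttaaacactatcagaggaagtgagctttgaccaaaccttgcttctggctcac

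The motifs were searched on both strands in all 33469 windows of this length. In the *Aadat* window, the nuclear receptor half-site AGGTCA (in 14.1% of all windows) overlaps the E box CAGCTG (12.0%), the core of the aryl hydrocarbon receptor site GCGTG (25.9%) occurs 2 times, and the CCAAT box (34.0%) occurs 1 time. In the *Kmo* window, the interferon response core GAAANNGAA (8.12%) occurs 2 times and the CCAAT box 1 time. The TATA box TATAAA (12.9%), the GC box GGGCGG (30.5%) and the glucocorticoid receptor half-site AGAACA (17.5%) were found in neither. The GC content was 62.0% for *Aadat* and 42.0% for *Kmo*, compared to a median of 51.2% over all windows. The windows share the CCAAT box, and these matches describe the letters only.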

How the data were processed

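RNA from the muscle of 6 pups (3 LBW, 3 ABW) was labelled for single-colour (Cy3) NimbleGen rat arrays, with 1 array per pup. The authors deposited a table of normalized log2 values with 26419 rows, listed by RefSeq accession. The paper's methods name in-house R scripts and Bioconductor, and the submitters' processing notes name RMA. The background step is not given in the sources used here, and the values hold no detection call, so that how far a dim signal lies above background is unknown. Arrays have no count depth, and their number limits the precision.

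Symbols came from RefSeq (GRCr8), which matched 9740 rows and 9621 symbols. Rows of a symbol were averaged, which left 26300 features. LBW minus ABW differences were tested over all of these features by the moderated linear model of limma (version 3.58.1, R 4.3.3, two-sided p, Benjamini-Hochberg adjustment), a method checked on simulated data. The threshold of the study was an unadjusted p under 0.05 with a fold change of at least 1.5. The enzymes, the pathway lists, the marker lists and the alternatives were chosen with earlier results of these data known. The genes named are the enzymes, the pathway genes past the threshold or otherwise the 2 with the largest difference in a list, and the 5 genes most like *Aadat* over the 6 arrays. *Kyat3*, *Got2*, *Nadsyn1*, *Nampt*, *Dhtkd1*, *Ddc*, *Ahr*, *Cyp1a1*, *Ppargc1a*, *Ppargc1b*, *Ppard* and the single marker genes (*Pvalb*, *Lep*, *Alb*, *Afp*, *Slc4a1*, *Alas2*, *Hbb*, *Epor*) were named with their values seen. The alternatives left out each pup, used the replicate number as a block, renormalized or filtered the values, changed the variance model, the weights or the fold change, kept each row on its own, or applied the methods' test.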

Additional observations from a re-analysis of the deposited data

How the results depend on the processing

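*Kmo* kept its direction and stayed past the unadjusted threshold under every alternative run, with log2 differences from -1.25 to -0.80 without 1 pup and from -1.05 to -0.60 otherwise. The difference of *Aadat* ranged from -2.60 to -1.67 without 1 pup. It was -1.72 without LBW 1, -2.00 in the methods' test and -0.79 without both LBW 1 and LBW 3, an alternative chosen after seeing the data. These values are a description, since *Aadat* was selected on this difference. Of the 8 enzymes other than *Aadat*, the number past the threshold was 1 to 2 without 1 pup and 1 by the methods' test. The median of the 8 enzymes other than *Aadat* ranged from -0.10 (without LBW 2) to -0.005 without 1 pup. Enzymes near 0 changed sign, with the cause not tested: *Haao* (-0.13 to 0.33 without 1 pup), *Qprt* (-0.0069 to 0.20 without 1 pup, -0.0016 with array weights), *Acmsd* (-0.0727 to 0.0945 without 1 pup, 0.013 with quantile normalization and 0.13 without both LBW 1 and LBW 3) and *Kyat1* (-0.27 to 0.0005 without 1 pup). *Kynu* passed the threshold without LBW 1 (-0.91), without ABW 1 (-0.89) and with an intensity trend (-0.64). *Haao* was at 0.75 without both LBW 1 and LBW 3, which leaves LBW 2 as the lone LBW pup. The alternatives for *Maob*, *Cyp1b1*, *Ppara* and *Pparg* were added after the data were seen, *Ppara* stayed past the threshold under all of them, and *Maob*, *Cyp1b1* and *Pparg* fell short by the methods' test and without both LBW 1 and LBW 3. *Tdo2*, *Ido1*, *Acmsd* and *Kynu* have no value without the dimmest 25% of features.

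Whether the replicate numbers pair the pups is not given in the sources used here and was not settled by the values. The deviations of same-numbered pups correlated at only 0.087, 0.104 and 0.055. Yet 6 of 6 pups correlated best with the pup of their own number in the other group. These matches are read from the same 9 pairs of pups and are not independent. They are a weak hint from the data and not from the design. With the replicate number as a block, 1230 features passed the unadjusted threshold compared to 1124 without it, 0 passed the adjusted one in either (the methods' test had 584 past the unadjusted one), and of the 8 enzymes other than *Aadat* 1 was past the unadjusted threshold, *Kmo* (-1.03).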
